A study of Arabidopsis thaliana with 2 samples.

Results

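AGAMOUS (AG, AT4G18960), SHATTERPROOF1 (SHP1, AT3G58780), SHATTERPROOF2 (SHP2, AT2G42830) and SEEDSTICK (STK, AT4G09960) are closely related MADS-box transcription factor genes of Arabidopsis thaliana. They were examined for binding of LEAFY (LFY), the plant transcription factor that gives floral meristems their identity. The members were all listed intervals that overlapped the body of 1 of these 4 genes, the 3 kb upstream or the 1 kb downstream by at least 1 bp. There were 2 such intervals of 4882 in the ampDAP list and 4 of 22514 in the DAP list. Binding was measured in vitro by DNA affinity purification sequencing, in which a tagged protein is mixed with sheared purified DNA and the bound fragments are recovered and sequenced. In the ampDAP group the genomic DNA had been copied by PCR, which removes cytosine methylation, and the label names 2-week-old seedlings and no transgene. In the DAP group the genomic DNA kept its methylation and came from 2-week-old 35S::LFY seedlings, a line in which the 35S promoter, active in most tissues, drives LFY. In both groups LFY carried a 5XMyC tag and was made by in vitro transcription and translation, and the seedlings grew in long days on 0.5-strength Murashige and Skoog medium. Each group is 1 library. The kind of DNA, the plant source and the library therefore cannot be told apart, and no test between the groups was possible. Purified DNA from whole seedlings has no chromatin, so the lists do not show which sites LFY can reach in a flower.

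AG is the C-class gene of the floral ABC model: it specifies stamens and carpels and ends the activity of the floral meristem. LFY activates AG together with WUSCHEL (WUS), and the known LFY- and WUS-responsive enhancer of AG lies in the large intron after the MADS-box exon, usually called the second intron. SHP1 and SHP2 act redundantly in carpels and in the valve margins along which the fruit opens. STK acts in ovules and seeds, where it shares ovule identity with AG, SHP1 and SHP2.

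Inside the gene bodies, the ampDAP list held an interval in AG and in SHP2. The DAP list held an interval at both of these places and a further interval in SHP1. STK had no interval in either list. Outside the gene bodies, the remaining member was a DAP interval upstream of AG. All intervals were 400 bp wide in the deposited lists and carried no height, score or p-value, so each interval is a position only, and the strength of binding was not compared. The read depth behind the lists is unknown. Positions are in TAIR10, the build named in the submitters' processing notes, counted from 1. Gene limits are those of RefSeq on TAIR10.1, whose nuclear chromosomes are those of TAIR10.

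**Figure D1:**
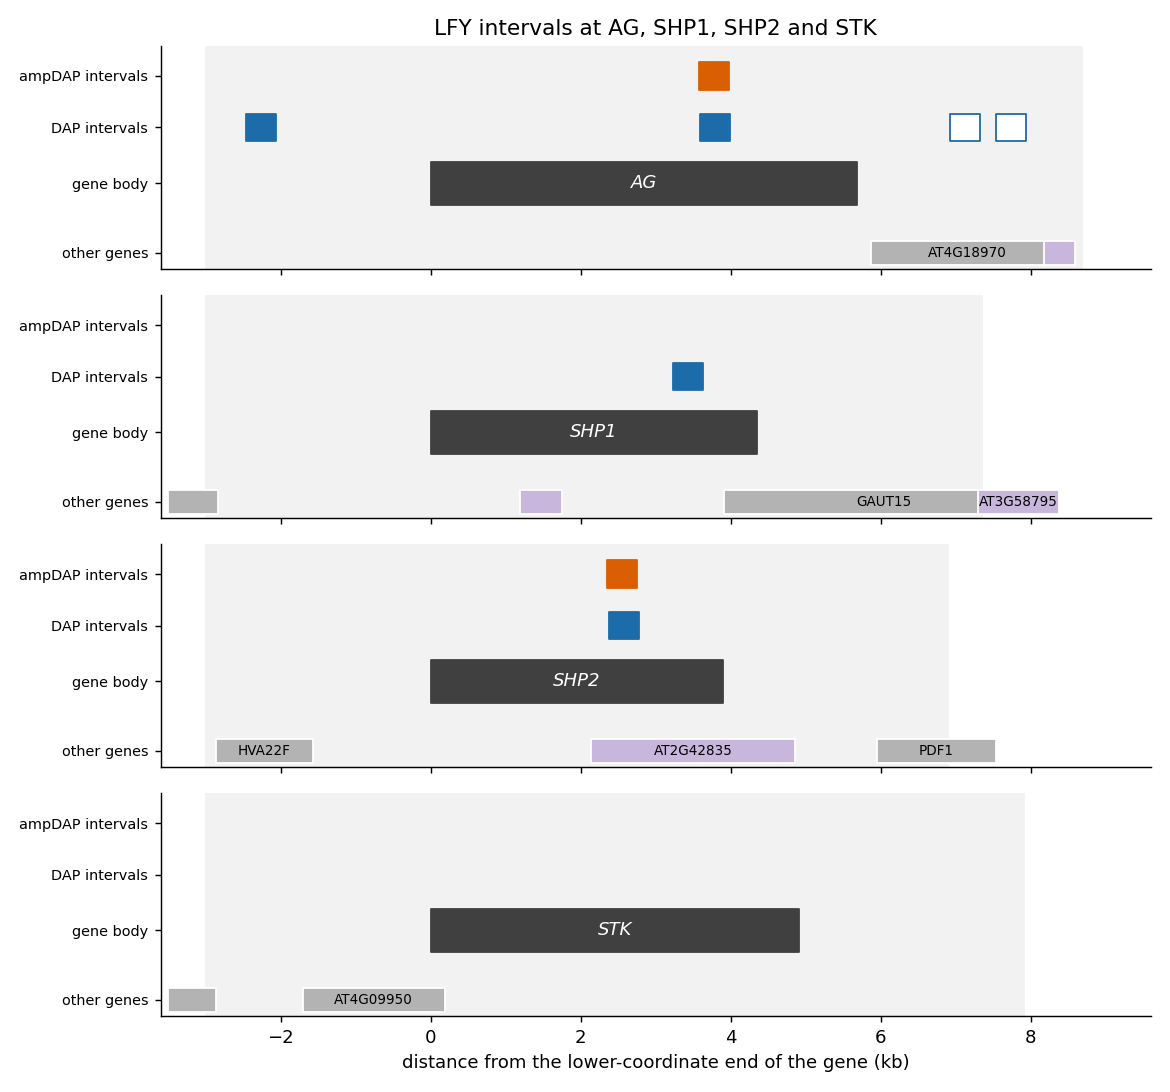
Map of the 4 gene loci, with the distance from the lower-coordinate end of each gene in kb on the horizontal axis. Orange boxes are ampDAP intervals and blue boxes DAP intervals, each 400 bp wide; filled boxes are members, and the open boxes above AG would be members only if AG were read toward lower coordinates. Dark bars are gene bodies, grey bars other protein-coding genes, violet bars long non-coding RNA genes, and the pale band is the gene with 3 kb at both ends. AG and SHP2 have an interval of each list at nearly the same place, SHP1 has a DAP interval only, and STK has none.

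AG spans 10382856 to 10388539 on chromosome 4 (5684 bp). The ampDAP list held 1 interval there, at 10386433 to 10386832. Its midpoint lay 3.78 kb from the lower-coordinate end of the gene and 1.91 kb from the higher one. The DAP list held an interval at 10386448 to 10386847 in the same place. The 2 midpoints were 15 bp apart and the intervals shared 385 bp, so they met the criterion for partners, midpoints within 200 bp. AG is read toward higher coordinates, which is background knowledge because the gene table gives no strand. Read in that direction, the midpoints lay 66.5% (ampDAP) and 66.7% (DAP) of the way along the gene body. Exon and intron limits were not used here, so neither interval could be placed in the second intron or outside it.

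The AG locus held further DAP intervals without a partner, which is common in the DAP list, where 20.4% of intervals had one. The interval at 10380398 to 10380797 had its midpoint 2259 bp below the gene, which is upstream in the reading direction given above. The closest other gene, AT4G18950, ended 1982 bp from the edge of this interval. On the other side of AG, the DAP intervals at 10389786 to 10390185 and at 10390402 to 10390801 had midpoints 1446 and 2062 bp beyond the gene. Both lay wholly within the next gene, AT4G18970. Their edges were 1247 and 1863 bp from AG, outside the 1 kb taken downstream, and they would count as members only if AG were read the other way. None of these 3 flanking DAP intervals had an ampDAP midpoint within 3 kb; the closest was 3353 bp away, and it was the one inside AG. In the ampDAP list the neighbours of the intragenic AG interval lay 13498 bp below and 36143 bp above it, midpoint to midpoint. Wide spacing is usual in this list, where the median stretch between neighbouring intervals was 15205 bp, edge to edge, with overlapping neighbours included.

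SHP2 spans 17820114 to 17824013 on chromosome 2 (3900 bp). The ampDAP list held an interval at 17822466 to 17822865, with its midpoint 2.55 kb from the lower-coordinate end of the gene. The DAP list held an interval at 17822493 to 17822892, with its midpoint 2.58 kb from that end. These midpoints were 27 bp apart and the intervals shared 373 bp, so they were partners. They lay 65.4% (ampDAP) and 66.1% (DAP) of the gene length from the lower-coordinate end. Both intervals also lay wholly within AT2G42835, a long non-coding RNA gene that overlaps SHP2 by 1756 bp, and the lists cannot assign them to either gene. The 3 kb at each side of SHP2 held no further interval of either list.

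SHP1 spans 21738160 to 21742517 on chromosome 3 (4358 bp). The ampDAP list held no interval at this gene, and its closest midpoint was 12096 bp from the DAP interval described next. The DAP list held 1 interval, at 21741397 to 21741796, with its midpoint 3.44 kb from the lower-coordinate end and 0.92 kb from the higher one, or 78.9% of the gene length from the lower end. The interval ended 275 bp short of GAUT15, a neighbouring gene whose annotated body overlaps SHP1 by 447 bp. The closely related SHP genes thus differed in these lists: the intragenic DAP interval had an ampDAP partner in SHP2 and none in SHP1. A missing partner is the usual case: of all DAP intervals wholly inside a protein-coding gene, 18.7% had an ampDAP partner. With 1 library per kind of DNA, the difference between SHP1 and SHP2 has no replicate check. A site missing from the shorter ampDAP list is not shown to be unbound on amplified DNA.

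STK spans 6236375 to 6241281 on chromosome 4 (4907 bp) and held no interval in either list, in the gene body or in 3 kb at both ends. The closest ampDAP intervals ended 13648 bp below the gene and began 8321 bp above it, so that STK lay in an ampDAP-free stretch of 26.9 kb. The closest DAP intervals were 12934 bp below and 8346 bp above, which left a DAP-free stretch of 26.2 kb. Of 4877 stretches between neighbouring ampDAP intervals, 31.2% were at least as long as that around STK. Of 22509 stretches between neighbouring DAP intervals, 1.49% were at least as long. Both totals take every neighbouring pair, including pairs that overlap and leave no free stretch. Long stretches hold more genes, and 62.2% (ampDAP) and 5.04% (DAP) of the 27444 protein-coding genes lay in stretches of at least these lengths without an interval touching the gene. The absence of a listed interval does not show that LFY did not bind.

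The neighbourhoods of the 4 genes differed in the density of intervals. Within 50 kb of the gene centre, the ampDAP list held 3 intervals around AG, 5 around SHP1, 6 around SHP2 and 4 around STK, where the median over all protein-coding genes was 4 (quartiles 3 and 6). There were 17 DAP intervals around AG, 37 around SHP1, 27 around SHP2 and 15 around STK, where the median was 21 (quartiles 17 and 25). Among the 4 genes, SHP1 had the most DAP intervals around it and STK the fewest.

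The counts at the 4 genes were read against all 27444 protein-coding genes. Because the gene table gives no strand, each gene was given the 3 kb flank first at its lower and then at its higher end. The ampDAP list held at least 1 member at 2 of the 4 genes, against 26.5% and 26.6% of all genes with the flank at the lower and the higher end. At least 1 DAP member was listed at 3 of the 4 genes, against 74.7% and 74.5% of all genes. AG had 2 DAP members, and 43.3% and 43.5% of all genes had 2 or more. With 3 kb at both ends AG had 4 DAP intervals, a count that 15.1% of all genes reached, and STK was among the 17.7% with none. These shares were not matched for gene length, and only 3.88% of protein-coding genes are at least as long as AG.

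Within gene bodies alone, 2 of the 4 genes were touched by an ampDAP interval, against 12.9% of all protein-coding genes, and 3 of the 4 by a DAP interval, against 47.1%. A partnered pair lay in the body of 2 of the 4, against 12.6%. The 4 genes are long, however, at 3900 to 5684 bp against a median of 2078 bp. Among the 2451 protein-coding genes within that range of lengths, 22.1% were touched by an ampDAP interval, 72.2% by a DAP interval, and 21.7% held a partnered pair. The exact 95% intervals were 6.76 to 93.2% for 2 of 4 and 19.4 to 99.4% for 3 of 4. These bounds treat the genes as random draws, but the 4 genes were chosen, so the bounds describe no sampling of genes. The counts cannot decide whether the 4 genes differ from other genes.

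Partners were counted from both sides. Both ampDAP members had a DAP partner (2 of 2, exact 95% interval 15.8 to 100%), against 94% of all ampDAP intervals. Of the 4 DAP members 2 had an ampDAP partner (50%, 6.76 to 93.2%), against 20.4% of all DAP intervals. The 3 DAP members inside gene bodies had a partner in AG and SHP2 and none in SHP1, and the upstream AG interval had none. Both ampDAP members (2 of 2) and 3 of the 4 DAP members lay wholly inside 1 of the 4 genes, against 59.7% of all ampDAP and 68.1% of all DAP intervals inside any protein-coding gene. The members were chosen for lying at these genes, while the shares cover intervals anywhere, so the values are not like for like. The exact 95% intervals do not cover this choice. Inside AG, SHP1 and SHP2, 2 of 2 ampDAP intervals and 2 of 3 DAP intervals had a partner, against 98.5% (ampDAP) and 18.7% (DAP) of the intervals inside any protein-coding gene.

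The midpoints of the 2 pairs were less close than those of most pairs. The median distance over all 4591 ampDAP intervals with a DAP partner was 7 bp. In 20.6% of these pairs the midpoints were at least as far apart as the 15 bp in AG, and in 7.28% at least as far apart as the 27 bp in SHP2. The DAP midpoint lay at the higher coordinate in both genes.

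**Figure D2:**
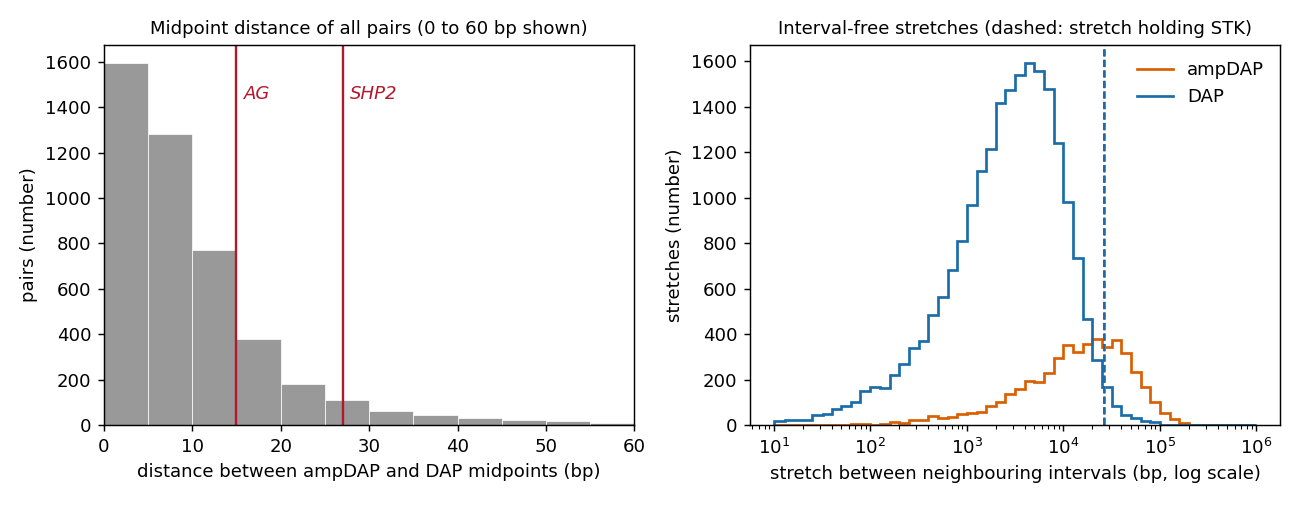
Left, number of pairs by the distance between ampDAP and DAP midpoints in bp, in steps of 5 bp, shown up to 60 bp; red lines mark the pairs in AG (15 bp) and SHP2 (27 bp), both beyond the median of 7 bp. Right, number of stretches between neighbouring intervals by length in bp on a log scale, for ampDAP (orange) and DAP (blue). The dashed lines, which nearly coincide, mark the stretches that hold STK (26.9 kb in ampDAP and 26.2 kb in DAP). Stretches under 10 bp and overlapping neighbours are not drawn.

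The intragenic intervals in AG, SHP1 and SHP2 lay in the usual range of positions for intervals inside genes of similar length. The distance from the midpoint to the nearer end was 33.5% of the gene length in AG and 34.6% in SHP2 for the ampDAP intervals, and 33.3% in AG, 21.1% in SHP1 and 33.9% in SHP2 for the DAP intervals. Among intervals wholly inside genes of 3900 to 5684 bp, the median was 27.7% both for 521 ampDAP intervals (quartiles 15.6 and 38.8%) and for 2823 DAP intervals (quartiles 16.8 and 39%). All 5 member values lay between these quartiles. The values in AG and in SHP2 come from partnered pairs, so the 5 are not independent.

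Regulators and targets of AG and other carpel and ovule genes were examined as a list of 30 genes. For these genes, whose strand the table does not give, the window was the gene body with 3 kb at both ends. The ampDAP list held an interval at 14 of the 30 genes (46.7%, exact 95% interval 28.3 to 65.7%), against 32.6% of all protein-coding genes. A DAP interval was listed at 26 of the 30 (86.7%, 69.3 to 96.2%), against 82.3%. The list was chosen with earlier results of these data known, so neither these shares nor their 95% intervals test the list against all genes. A partnered pair lay in the window of 14 of the 30 genes, against 31.6% of all protein-coding genes. Among genes with an ampDAP interval in the window, 14 of 14 in the list held such a pair, against 97% of all such protein-coding genes. Distances below or above a gene are given from the midpoint of the interval to the gene's end.

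Among the genes that act on AG, WUS, a homeobox gene of stem cell maintenance, had an ampDAP midpoint 1618 bp and a DAP midpoint 1616 bp above its higher end. A further DAP midpoint, without a partner, lay 1962 bp above WUS. SEP3, whose MADS-box product forms complexes with that of AG, had 2 ampDAP intervals, 2429 and 2681 bp above the gene, and 5 DAP intervals. Of these DAP intervals, those at 2422 and 2672 bp were the partners. LUG, which encodes a co-repressor of AG, and CLF, a Polycomb histone methyltransferase that represses AG, each had a pair inside the gene body. The LUG midpoints were 8 bp apart, whereas the CLF ampDAP midpoint lay 118 bp from one DAP midpoint and 190 bp from another. CLF also had a DAP interval without a partner 1489 bp below the gene. Of 4 genes listed as repressors of AG, 2 had an ampDAP interval, against 32.6% of all protein-coding genes, and 4 had a DAP interval, against 82.3%. SEU and AP2 had DAP intervals only, as did RPL, which was listed as a repressor but not among these 4.

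HUA1 and HUA2, which promote processing of AG transcripts, had 1 and 2 ampDAP intervals and 2 and 3 DAP intervals. ANT and AIL6, related AP2-domain genes of floral organ growth, each had 1 ampDAP interval, and had 2 and 4 DAP intervals. The pair of ANT lay 2564 bp (ampDAP) and 2586 bp (DAP) above the gene, and that of AIL6 inside it with midpoints 6 bp apart. BPC1, which encodes a GA-repeat binding protein that regulates STK, had a pair inside the gene with midpoints 17 bp apart and a further DAP interval 1356 bp below it. STK itself had none, as described above.

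Among targets of AG and genes of the carpel and ovule, CRC, a YABBY gene of carpel development, had an ampDAP midpoint 139 bp and a DAP midpoint 140 bp below the gene, and both intervals reached into the gene body. HEC1, a basic helix-loop-helix gene of the gynoecium, had a pair 453 bp (ampDAP) and 462 bp (DAP) below the gene. Another DAP interval, without a partner, lay 1059 bp above HEC1. ETT, an auxin response factor gene of gynoecium patterning, had a pair with midpoints 189 bp (ampDAP) and 195 bp (DAP) below the gene, and both intervals reached into the gene body. A further ampDAP interval, without a DAP partner, overlapped the other end of ETT, with its midpoint 58 bp above the gene. A DAP interval without a partner had its midpoint 2616 bp below ETT. SUP, a zinc finger gene that limits stamen number, had a pair 2435 bp (ampDAP) and 2414 bp (DAP) below the gene. TT16, the B-sister MADS-box gene of the seed coat, had a pair 2032 bp (ampDAP) and 2030 bp (DAP) above the gene. Further DAP intervals of TT16, without a partner, lay inside the gene and 241 bp above it. Of the 9 genes listed for carpel and fruit, 2 had an ampDAP interval and 6 had a DAP interval. Of the 4 ovule genes, 1 had an ampDAP interval and 4 had a DAP interval. The shares over all protein-coding genes were 32.6% (ampDAP) and 82.3% (DAP), and these sets were not tested against them. SPL/NZZ, SPT, HEC3 and STY1 had, like STK, no interval in either list; they were picked out after their values were seen.

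**Figure D3:**
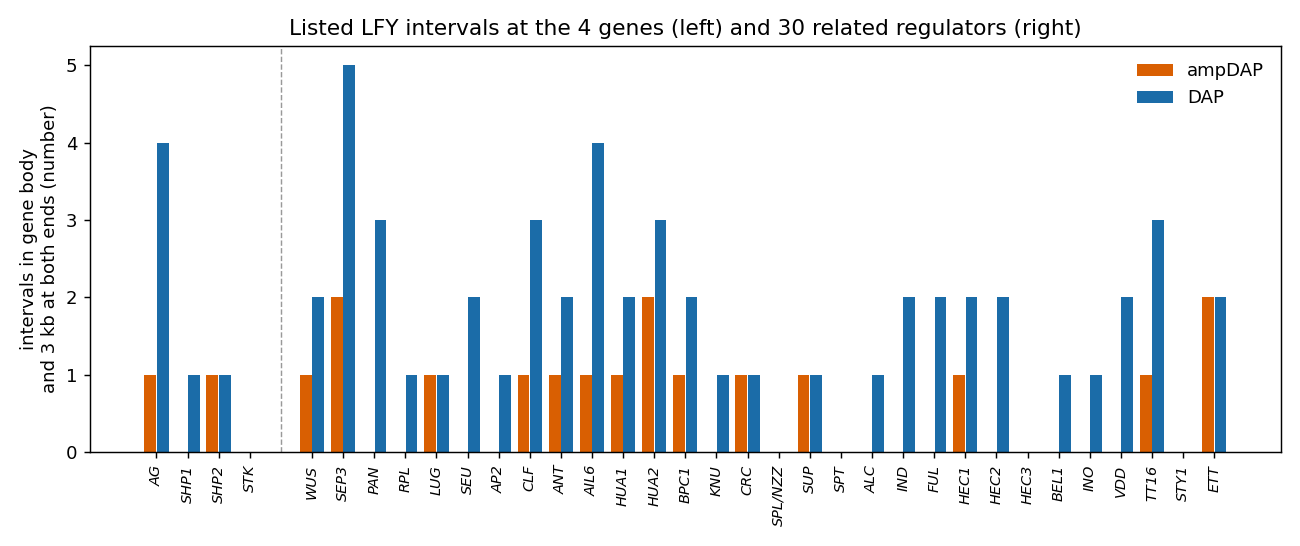
Number of listed intervals in the gene body and 3 kb at both ends, for ampDAP (orange, left bar) and DAP (blue, right bar), at AG, SHP1, SHP2 and STK (left of the dashed line) and at 30 related regulators (right of it). AG has 4 DAP intervals, as does AIL6, and SEP3 has 5; 14 of the 30 regulators have an ampDAP interval.

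Other MADS-box floral genes were counted in the same window, in which 2 of the 4 genes AG, SHP1, SHP2 and STK had an ampDAP interval and 3 of 4 a DAP interval. Of AP1, CAL and FUL, 2 of 3 had an ampDAP interval and 3 of 3 a DAP interval. Of SEP1, SEP2, SEP3 and SEP4, 3 of 4 had an ampDAP interval and 3 of 4 a DAP interval, with SEP2, like STK, in neither list. In the same window 32.6% of all protein-coding genes had an ampDAP interval and 82.3% a DAP interval, and no set of 3 or 4 genes was tested against these shares.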

How the data were processed

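LFY binding to purified genomic DNA was profiled in 2 libraries, 1 of PCR-amplified DNA (ampDAP) and 1 of native DNA (DAP), grouped by the labels. The submitters' processing notes name Bowtie2, SAMtools, MACS2 and the build TAIR10; their order, versions, control and threshold are not given in the sources used here. The deposited values are interval starts and ends. All intervals were 400 bp wide, and the rule by which the authors set this width is not given, so the caller's original extents and any merging of replicates are unknown.

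Gene limits came from a RefSeq table of TAIR10.1, which has neither strand nor exons. Its coordinates were checked against the DAP list: 76.1% of DAP midpoints lay in protein-coding gene bodies, and 72.8% after a shift of the list by 0.5 kb in either direction. Overlaps and partners (midpoints within 200 bp) were counted in Python 3.11.15. Exact Clopper-Pearson 95% intervals, which cover counting error only, were computed with SciPy 1.17.1. They treat genes and intervals as independent draws, which chosen genes and the intervals at them are not. The counting was tested on simulated intervals at known places. Each gene's window was its body, 3 kb upstream and 1 kb downstream, with reading directions taken from background knowledge. The direction changed the members at AG only. No count test was run, because each group has 1 library. The genes and lists were chosen with earlier results of these data known. From the list of 30 genes, those with an ampDAP interval or with at least as many DAP intervals as AG were named, besides those named for comparison. The share of intervals with an LFY core motif had been planned. It was not computed and no sequence is shown, because genome sequence was not used here.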

Additional observations from a re-analysis of the deposited data

How the results depend on the processing

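The number of members and of partnered members at AG, SHP1, SHP2 and STK was recomputed with other windows, partner distances and reading directions. The 4 counts stayed within 1.5 times the reported value in all but 2 of 24 recomputed values. These values are not independent, because partners counted from the ampDAP and DAP sides are the same pairs in AG and SHP2. Both pairs lie inside gene bodies, which every window included, so no window tried could lower the number of ampDAP or partnered members. With midpoints required within 20 bp, 1 of the 4 DAP members and 1 of the 2 ampDAP members had a partner, because the SHP2 midpoints were 27 bp apart. The number of DAP members (4) was 3 with the gene body and 1 kb upstream, 5 with all genes read in the opposite direction and 6 with 3 kb at both ends; the last 2 alternatives were chosen after seeing the data. The number of ampDAP members was 2 under every window tried. The share of DAP members with a core motif and its alternatives could not be computed without genome sequence. No paired analysis was possible because native and amplified DNA are represented by a single library each, which also leaves no replicate to omit. Unknown depth and thresholds limit every statement on a missing interval, including those on STK and on SHP1 in the ampDAP list.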
